A study of Mus musculus with 7 samples.

Results

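Chemokine ligands are small secreted proteins that steer white blood cells, and the array used here carries 51 probe sets for 33 of their genes. They were selected by symbol: every probe set whose single annotated gene is a Ccl, Cxcl, Cx3cl or Xcl gene was taken. Of several probe sets of a gene, the one with the highest mean signal across all 7 arrays stands for it. The 33 genes are part of 18193 genes with a probe set. Of the 33, 23 reached a mean log2 signal of 5.47, which is the 40th percentile over probe sets, and were tested among 13285 genes, and 10 lay under that level. The samples are left lungs of 3 Gata5 knockout mice (KO) and of 4 wild-type animals (WT), all aged 8 weeks and without treatment, with total RNA of each lung on 1 Affymetrix mouse expression array. Gata5 encodes a zinc-finger transcription factor. Replicates are biological by their labels, in which strain, sex, litter and the kind of allele are not stated. The comparison asks which lung transcripts differ after loss of Gata5.

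Chemokines bind G protein-coupled receptors on leukocytes and guide them along a gradient held on heparan sulphate at the vessel wall and in the matrix. Their families are named after the spacing of the first cysteines, which gives the CC, CXC, CX3C and XC ligands. Some are made all the time by lung epithelium, vessel wall or resident macrophages, whereas others are switched on through NF-kB, interferon or STAT signals when tissue is injured or infected. In whole lung RNA, fewer cells of a type and less RNA per cell cannot be told apart.

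All arrays carried a strong signal of lung epithelium, with the type 2 cell gene Sftpc between 14.00 and 14.05 on KO arrays and between 14.10 and 14.20 on WT arrays. Gata5 itself was dim, at 4.98, 4.71 and 5.15 on KO arrays and 5.32, 5.53, 5.85 and 5.47 on WT arrays, without overlap (limma adjusted p = 0.0326 in the fit without the level filter). The excess of the beta-actin 3′ over the 5′ control probe set, a measure of RNA quality, was 4.74 to 5.39 on KO arrays and 3.88 to 4.31 on WT arrays (exact permutation p = 0.0286, two-sided, the smallest that 35 splits can give). The excess over the middle probe set was likewise higher in KO for beta-actin, at 2.84 to 3.34 against 2.23 to 2.56 in WT, and for Gapdh, while the 3′ over 5′ excess of Gapdh averaged 6.46 in KO and 6.49 in WT (exact permutation p = 0.686). Median signal per array lay between 6.10 and 6.15. WT replicate 4 differed in sex-linked transcripts, with the Y-linked Eif2s3y at 3.71 against 9.30 to 9.68 on the others. Xist, a transcript of females, was at 12.72 on that array and at 6.31 to 6.48 on the others. By these transcripts WT replicate 4 was female and the other samples male, so the WT group was of mixed sex and the KO group was not.

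Between KO and WT lungs 1 chemokine ligand passed the test. Of the 23 tested genes 1 fell, 0 rose and 22 did not pass the test, which was limma with Benjamini-Hochberg adjustment over all 13285 genes at adjusted p under 0.05. The gene that fell was Ccl27a, a ligand known from skin, by 1.27-fold. Over all tested genes 15.6% passed, 10.0% lower and 5.56% higher in KO, beside 1 of 23 (4.35%) of the ligands. At unadjusted p under 0.05 there were 6 of 23 ligands, or 26.1%, against 34.8% of all tested genes. Groups of arrays did not overlap for 2 of 23 ligands, Ccl27a and Ccl22, or 8.70%, against 29.6% of all tested genes. The shares are descriptions, with no test over the group.

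The ligands leaned neither way: 12 of 23 (52.2%) had a log2 change above 0, against 49.2% of all tested genes, and 11 had one below. Their median was 0.006, against a median of -0.003 over all tested genes. Their log2 changes ran from -0.78 for Ccl17 to 0.34 for Cxcl17, so none reached 2-fold. The median size of the log2 change was 0.19 for the ligands and 0.14 for all tested genes. The ligands were also less precisely measured. From its centre to either end, the 95% interval spanned 0.27 at the median for ligands and 0.19 for all tested genes, and between 0.15 and 0.76 for single ligands. For 22 of the 23 the whole interval lay within a log2 change of 1 in either direction, the exception being Ccl17. For 12 of 23 (52.2%) it lay within 0.5, against 77.7% of all tested genes.

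**Figure D1:**
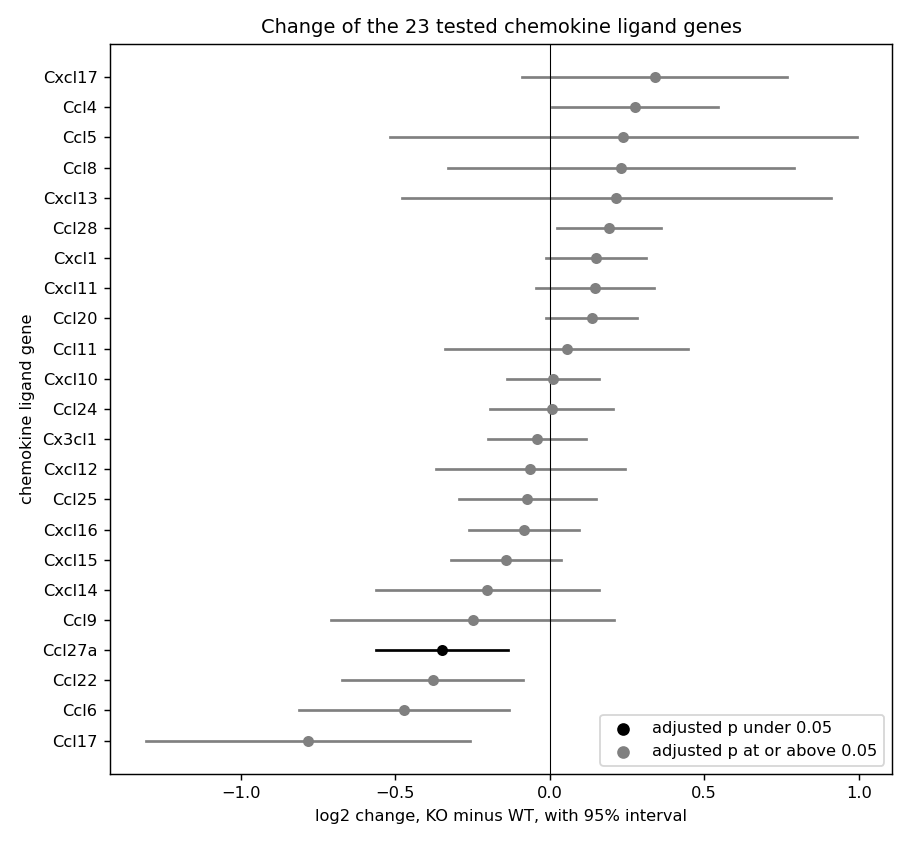
Log2 change of the 23 tested chemokine ligand genes, KO minus WT, on the horizontal axis, with bars for the 95% interval of the limma fit. Only Ccl27a, in black at -0.35, had an adjusted p under 0.05, while Ccl17 lay lowest at -0.78 and Cxcl17 highest at 0.34.

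Ccl27a attracts T cells that carry the receptor Ccr10 and is best known as a product of skin keratinocytes. Its signal was 6.16, 6.37 and 6.30 on KO arrays and 6.84, 6.51, 6.53 and 6.62 on WT arrays. Every KO array lay below every WT array, with WT replicate 1 highest. KO lungs averaged 6.28 ± 0.11 (SD, n = 3) and WT lungs 6.63 ± 0.15 (SD, n = 4), a log2 change of -0.35 with a 95% interval from -0.56 to -0.13 (limma adjusted p = 0.0415). The call held without WT replicate 2 (adjusted p = 0.0478) and was lost without any one of the other arrays, when the log2 change was between -0.39 and -0.28 and the adjusted p between 0.0501 and 0.111. Without WT replicate 4 it was -0.35 (adjusted p = 0.0904). It was also lost with a beta-actin or Gapdh control difference as a covariate, where the log2 change was -0.59, -0.47 and -0.35.

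The Ccl27a probe set ends in x_at, a type whose probes can match other transcripts, and mouse Ccl27 genes exist in near-identical copies, so the value is uncertain as that of 1 gene. The annotation assigned 2 further probe sets to several of those copies together. Their mean signals were 7.61 in KO and 7.69 in WT at the first, a log2 change of -0.08, and 6.75 and 7.02 at the second, a log2 change of -0.27. Ccl28, which shares the receptor Ccr10 and is made by mucosal epithelium, had the opposite sign. Its log2 change was 0.19 (adjusted p = 0.110), with KO arrays at 5.64, 5.44 and 5.67 and WT arrays at 5.31, 5.44, 5.38 and 5.44. The groups touched at 5.44, and without KO replicate 2 Ccl28 passed (0.26, adjusted p = 0.0389). Its mean signal of 5.474 lay just above the level filter of 5.466. The other Ccl28 probe sets lay under the filter, with log2 changes of -0.02 and 0.18. Ccr10 itself had a log2 change of 0.16 (adjusted p = 0.282).

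Because Gata5 encodes a GATA factor, the promoter of the gene that passed is given with those of Ccl17 and Ccl22, the pair of genes described next. Each window is from RefSeq on GRCm38.p6 and runs from 250 bases before to 50 after an annotated start, on the gene's own strand. For Ccl27a the most downstream of 3 annotated starts is given, a choice made after the sequences had been read and found to hold matches only there. It lies at chr4:41770163-41770462 on the minus strand. Ccl17 is at chr8:94810203-94810502 and Ccl22 at chr8:94745434-94745733, both on the plus strand. Capitals mark matches on either strand to the GATA family motif, searched as the letters GATA with A or T before them and A or G after them.
Ccl27a: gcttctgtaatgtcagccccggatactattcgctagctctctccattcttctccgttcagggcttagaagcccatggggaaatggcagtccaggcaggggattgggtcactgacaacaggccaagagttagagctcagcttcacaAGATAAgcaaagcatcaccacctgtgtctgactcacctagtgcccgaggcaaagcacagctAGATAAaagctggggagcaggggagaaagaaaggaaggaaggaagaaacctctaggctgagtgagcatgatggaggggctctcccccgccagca
Ccl17: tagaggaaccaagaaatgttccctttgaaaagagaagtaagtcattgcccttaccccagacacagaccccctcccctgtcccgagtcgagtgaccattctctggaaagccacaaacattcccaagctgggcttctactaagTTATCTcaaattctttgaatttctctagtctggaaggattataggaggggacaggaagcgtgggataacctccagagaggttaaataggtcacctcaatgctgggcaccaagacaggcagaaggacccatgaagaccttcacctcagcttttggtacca
Ccl22: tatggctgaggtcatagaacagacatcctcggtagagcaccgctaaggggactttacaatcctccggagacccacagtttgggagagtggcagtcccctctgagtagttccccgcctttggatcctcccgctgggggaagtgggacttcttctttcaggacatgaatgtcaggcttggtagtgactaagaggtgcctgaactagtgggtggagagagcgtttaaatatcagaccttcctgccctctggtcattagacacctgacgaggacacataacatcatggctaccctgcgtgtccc
The Ccl27a window held 2 matches, beginning 105 and 44 bases before the start, and the windows of its other 2 starts held none. The Ccl17 window held 1 match, beginning 109 bases before the start, and the Ccl22 window none. Such a match was found in 29.8% of all 32851 promoter windows, so these are matches of letters in the window and nothing was drawn from them about binding.

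Ccl17 and Ccl22 are made by dendritic cells and macrophages and attract T cells that carry Ccr4. Their genes lie close together on chromosome 8, with Cx3cl1 between them. Ccl17 had the lowest log2 change of the tested ligands. It stood at 7.82, 8.00 and 7.33 on KO arrays and 7.96, 8.86, 8.75 and 8.43 on WT arrays. The groups overlapped only through WT replicate 1, which lay just below KO replicate 2. KO lungs averaged 7.72 ± 0.35 (SD, n = 3) and WT lungs 8.50 ± 0.40 (SD, n = 4), a log2 change of -0.78 with a 95% interval from -1.31 to -0.26, and it missed the threshold (limma adjusted p = 0.0517). It passed under 5 of 21 other settings, among them leaving out WT replicate 1 (log2 change -0.96, adjusted p = 0.0294) and median centring (-0.81, adjusted p = 0.0456). Once the beta-actin excess over the middle probe set entered as a covariate, the log2 change was -0.13. With the beta-actin excess over the 5′ probe set it was -0.86, and with that of Gapdh -0.75. Ccl17 passed in none of these fits. Both beta-actin excesses were higher on every KO array than on any WT array. These covariates thus go along with genotype, and the part of RNA quality was not tested.

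Ccl22 stood at 6.22, 6.16 and 6.20 on KO arrays and 6.25, 6.88, 6.56 and 6.60 on WT arrays. The groups did not overlap, though WT replicate 1 lay close above the KO arrays. For Ccl22 the log2 change was -0.38 with a 95% interval from -0.67 to -0.09 (adjusted p = 0.0779). Without WT replicate 1 it was -0.49 and passed (adjusted p = 0.0307). Once the beta-actin excess over the 5′ probe set entered as a covariate, it was -0.04. With the excess over the middle probe set it was -0.28, and with that of Gapdh -0.39. The receptor Ccr4 lay under the level filter, with a log2 change of 0.09.

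Beside these ligands, markers of dendritic cells were divided. Of 6 tested markers 2 fell, 0 rose and 4 did not pass, beside 10.0% lower and 5.56% higher of all tested genes. Zbtb46, a transcription factor of conventional dendritic cells, was at 8.57, 8.86 and 8.97 on KO arrays and 9.33, 9.23, 9.74 and 9.39 on WT arrays (log2 change -0.62, adjusted p = 0.0223), and endothelial cells also express it. That call was lost without KO replicate 1 or WT replicate 4 (limma adjusted p up to 0.0570). Cd209a, a lectin of monocyte-derived dendritic cells, fell with a log2 change of -0.44 (adjusted p = 0.0105). Flt3, Batf3, Itgae and Siglech, other dendritic cell genes, had log2 changes from 0.01 to 0.12. The log2 of the summed signal of the 6 was 10.18 to 10.39 on KO arrays and 10.52 to 10.67 on WT arrays. Zbtb46, the brightest, weighs most in that sum. Among all tested genes, groups of arrays did not overlap for 29.6%. The part of these markers in the values of Ccl17 and Ccl22 was not tested. Stat6, the factor through which interleukins 4 and 13 are known to act on Ccl17, fell with a log2 change of -0.35 (adjusted p = 0.0301), a call lost without WT replicate 1, 3 or 4 (limma adjusted p up to 0.0761).

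**Figure D2:**
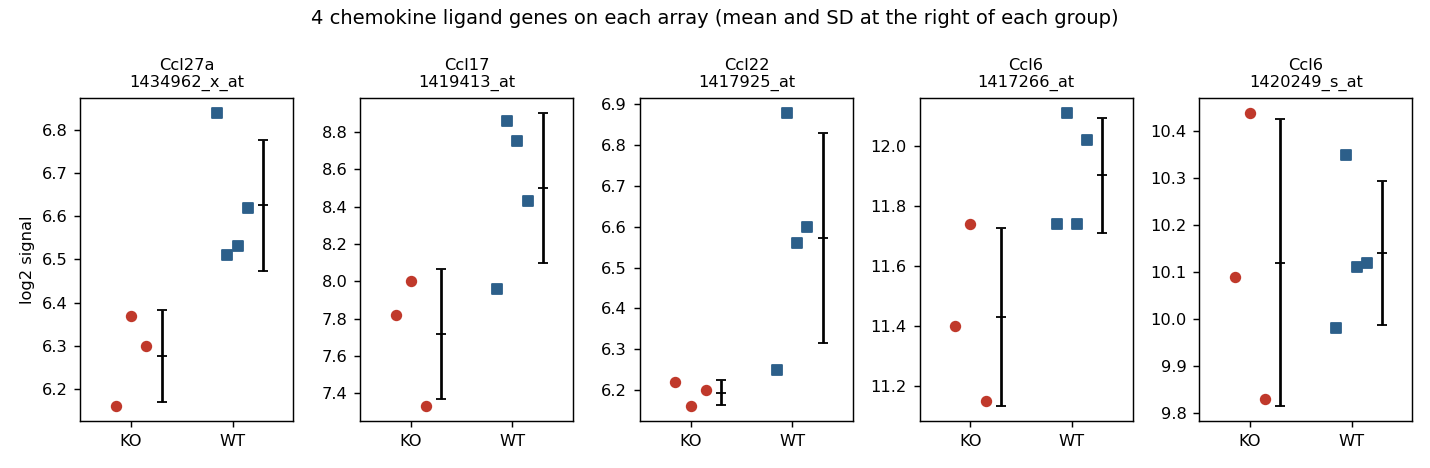
Log2 signal of Ccl27a, Ccl17, Ccl22 and 2 probe sets of Ccl6 on each KO and WT array, with mean and SD at the right of each group and a separate vertical scale for each panel that does not start at 0. KO and WT do not overlap for Ccl27a and Ccl22, 1 WT array lies among the KO arrays for Ccl17, and the Ccl6 probe sets differ from each other.

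Ccl6 and Ccl9 are CC ligands of mouse macrophages and myeloid cells that act on Ccr1, and their genes are neighbours on chromosome 11. Ccl6 stood at 11.40, 11.74 and 11.15 on KO arrays and 11.74, 12.11, 11.74 and 12.02 on WT arrays. The groups met at 11.74, where KO replicate 2 equalled WT replicates 1 and 3. The log2 change was -0.47 with a 95% interval from -0.81 to -0.13 (adjusted p = 0.0638), and it passed without KO replicate 2 (-0.63, adjusted p = 0.0297). The other Ccl6 probe set, also bright, did not share that difference. It read 10.09, 10.44 and 9.83 on KO arrays and 9.98, 10.35, 10.11 and 10.12 on WT arrays, a log2 change of -0.02. The first probe set was at -0.02 as well once the beta-actin excess over the middle probe set entered as a covariate. It was at -0.62 with the excess over the 5′ probe set and at -0.46 with that of Gapdh.

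Ccl9 stood at 8.60, 8.83 and 8.10 on KO arrays and 8.61, 9.21, 8.61 and 8.61 on WT arrays. WT replicate 2 was high and KO replicate 3 low, and the remaining 5 arrays lay close together. The log2 change was -0.25 with a 95% interval from -0.71 to 0.21 (adjusted p = 0.392), and -0.28 at its other, dim probe set. Ccl24, an eotaxin made by macrophages, had a log2 change of 0.01 (interval -0.19 to 0.21). Beside 15.6% of all tested genes, none of 8 tested alveolar macrophage markers passed. Their log2 changes ran from -0.57 for the mannose receptor Mrc1 (adjusted p = 0.0600) to 0.03 for Fabp4, and the log2 of their summed signal was 13.53 to 13.91 on KO arrays and 13.80 to 14.05 on WT arrays. The receptor Ccr1 had a log2 change of -0.08 (adjusted p = 0.779). Of 6 interstitial macrophage and monocyte markers Csf1r, the receptor for macrophage colony-stimulating factor, rose (0.33, adjusted p = 0.00944) and the complement gene C1qc fell (-0.55, adjusted p = 0.0293), while 4 did not pass. The C1qc call held without WT replicate 2 or WT replicate 3 and was lost without any one of the other 5 arrays (limma adjusted p up to 0.0854). These counts stand beside 10.0% lower and 5.56% higher of all tested genes. The markers' summed signal was 12.59 to 12.68 on KO arrays and 12.31 to 12.43 on WT arrays on the log2 scale. Most of it came from Csf1r, at 12.30 to 12.37 on KO arrays and 11.96 to 12.04 on WT arrays. The log2 changes of the 4 that did not pass ran from -0.36 for C1qa to 0.29 for C1qb. The part of the markers in the ligand values was not tested.

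**Figure D3:**
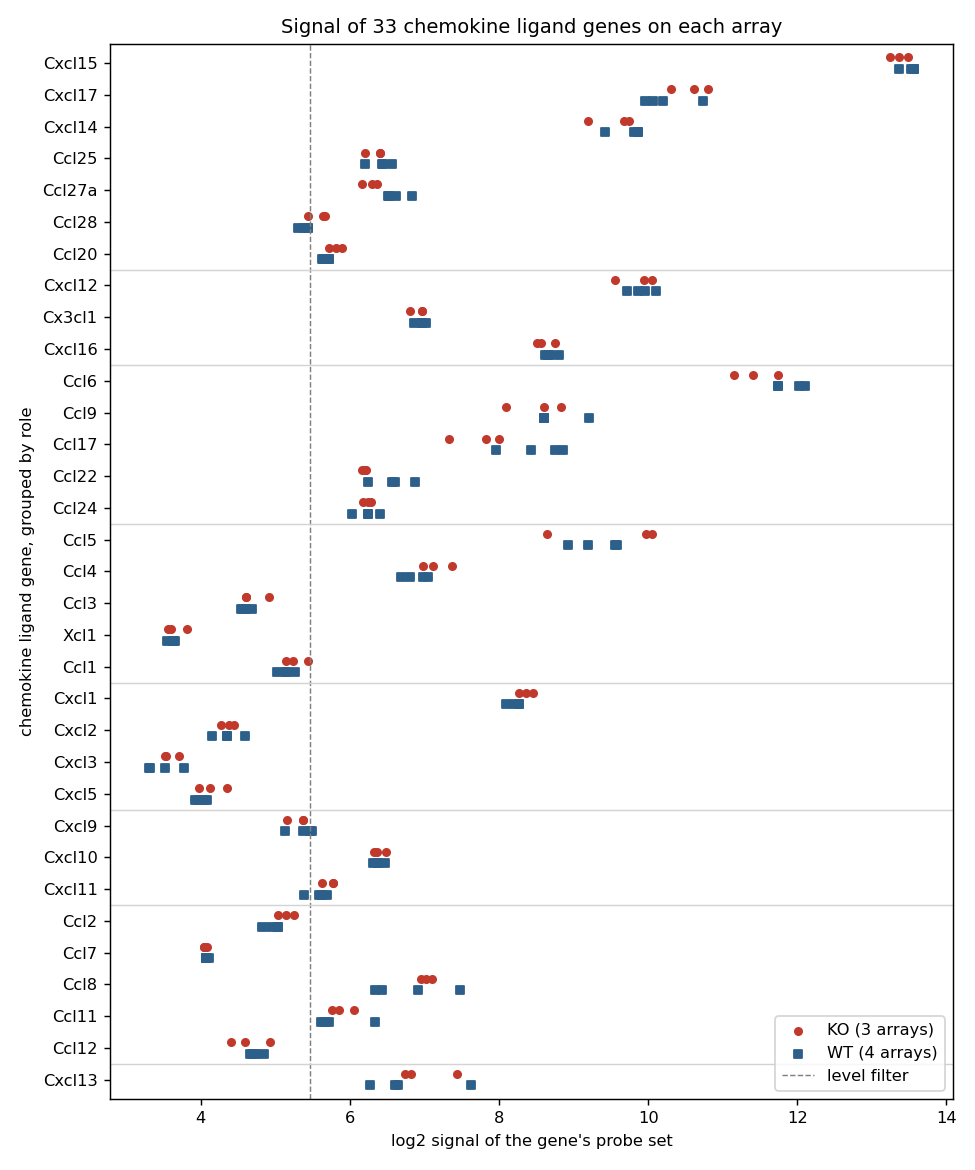
Log2 signal of the 33 chemokine ligand genes, 1 row a gene and grouped by role, with KO arrays as circles above and WT arrays as squares below, and a dashed line at the level filter of 5.47. KO and WT arrays lie apart for Ccl27a and Ccl22 alone among the genes above the line, and since each gene has its own probe set the rows do not rank transcript amounts against each other.

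Of the 7 ligands grouped here under alveolar and airway epithelium, Ccl27a fell and 6 did not pass. The grouping was set by hand, and the cells that make these ligands in the lungs studied were not measured. Ccl27a is best known from skin, as said above. Cxcl15, known as lungkine and made by mouse airway and alveolar epithelium, stood at 13.48, 13.36 and 13.25 on KO arrays and 13.37, 13.56, 13.52 and 13.57 on WT arrays. The groups overlapped through KO replicate 1 and WT replicate 1. KO minus WT was -0.14 on the log2 scale with a 95% interval from -0.32 to 0.04 (adjusted p = 0.227), and -0.03 at its other probe set. An excess or loss of more than 0.32 on the log2 scale lay outside that interval.

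Cxcl17, a ligand of mucosal surfaces, had the highest log2 change of the tested ligands. Its signal was 10.31, 10.62 and 10.80 on KO arrays and 10.20, 10.73, 10.06 and 9.96 on WT arrays. WT replicate 2 lay among the KO arrays and the other WT arrays lay below them. KO minus WT was 0.34 on the log2 scale with a 95% interval from -0.09 to 0.77 (adjusted p = 0.227). Without WT replicate 2 it was 0.50 and passed (adjusted p = 0.0475). Cxcl14, made by many epithelia, read 9.75, 9.68 and 9.19 on KO arrays and 9.42, 9.87, 9.87 and 9.81 on WT arrays, with the lowest value of each group apart from the rest. Its log2 change was -0.20 (adjusted p = 0.380), and 0.15 at its other bright probe set.

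Ccl20 guides cells with Ccr6 to mucosal surfaces, and Ccl25 guides cells with Ccr9 and is known from thymus and gut. Ccl20 had a log2 change of 0.14 (adjusted p = 0.171) and Ccl25 of -0.07 (adjusted p = 0.614), and at its other, dim probe set Ccl25 was at 0.23. The receptors did not pass either, with Ccr6 at 0.29 (adjusted p = 0.163) and Ccr9 at 0.03.

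At the probe sets that stand for the genes, ligands of stroma and vessel wall had log2 changes between -0.08 and -0.04, and none of the 3 passed. The other probe sets of Cxcl16 and Cx3cl1, given below, lay further from 0, at -0.29 and between 0.16 and 0.20. Cxcl12, which holds leukocytes and progenitors in tissue through Cxcr4, read 9.95, 10.05 and 9.55 on KO arrays and 9.86, 9.72, 9.96 and 10.11 on WT arrays. KO replicate 3 was the lowest array and the others were mixed. The log2 change was -0.06 with a 95% interval from -0.37 to 0.24 (adjusted p = 0.757), with -0.08 and 0.10 at its other probe sets. Its sign turned under 8 of 21 other settings.

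The receptor of Cxcl12 was the 1 receptor that fell. Cxcr4 stood at 8.22, 7.72 and 7.76 on KO arrays and 8.86, 8.23, 8.62 and 8.92 on WT arrays. The groups did not overlap, but KO replicate 1 at 8.22 and WT replicate 2 at 8.23 were nearly level. KO lungs averaged 7.90 ± 0.28 (SD, n = 3) and WT lungs 8.66 ± 0.31 (SD, n = 4), a log2 change of -0.76 with a 95% interval from -1.17 to -0.34 (limma adjusted p = 0.0293). The call held without KO replicate 1 or WT replicate 2 and was lost without any one of the other 5 arrays (adjusted p between 0.0611 and 0.0936). Neither did it hold with either beta-actin covariate, at -0.69 and -0.41. Ackr3, an atypical receptor that removes Cxcl12, had a log2 change of -0.42 (adjusted p = 0.0782), with KO arrays at 10.11, 10.50 and 10.19 and WT arrays at 10.50, 10.73, 11.01 and 10.51.

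Cxcl16, a membrane-bound ligand that can be shed, read 8.57, 8.75 and 8.51 on KO arrays and 8.68, 8.62, 8.66 and 8.81 on WT arrays. These groups overlapped, and the log2 change was -0.08 (adjusted p = 0.467). Its other probe set, above the level filter, read 7.30, 7.39 and 7.29 on KO arrays and 7.55, 7.63, 7.55 and 7.72 on WT arrays. Here the groups were apart, with a log2 change of -0.29 that passed when every probe set was tested on its own (limma adjusted p = 0.0230). Cx3cl1, or fractalkine, an adhesive ligand of endothelium and epithelium, had a log2 change of -0.04 at the probe set used (interval -0.20 to 0.12), and 0.16, 0.20 and 0.18 at its 3 others. Their receptors Cxcr6 and Cx3cr1 had log2 changes of 0.06 (adjusted p = 0.743) and 0.21 (adjusted p = 0.120).

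**Figure D4:**
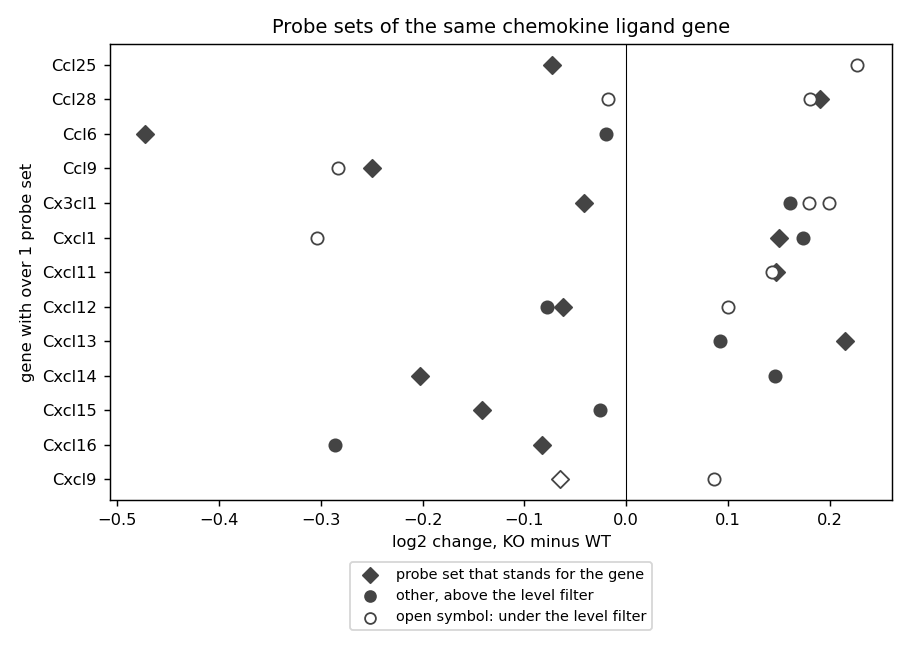
Log2 change, KO minus WT, of every probe set of the 13 chemokine ligand genes with more than 1, with diamonds for the probe set that stands for the gene and open symbols for probe sets under the level filter. In 7 of the 13 genes the probe sets lie on both sides of 0, and the Ccl6 diamond at -0.47 stands apart from its other probe set at -0.02.

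Over the 13 genes with several probe sets, the sign was mixed in 7: Ccl25, Ccl28, Cx3cl1, Cxcl1, Cxcl9, Cxcl12 and Cxcl14. The widest spread within a gene was that of Cxcl1, from -0.30 to 0.17. The other 20 genes had 1 probe set each, among them Ccl17, Ccl22 and Ccl27a, so their values could not be set against another probe set of the same gene alone.

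T and NK cells make Ccl5, Ccl4, Ccl3 and Xcl1. Ccl5, which attracts T cells, monocytes and eosinophils, had the widest interval of the tested ligands. It stood at 10.05, 9.97 and 8.64 on KO arrays and 9.58, 9.20, 8.92 and 9.56 on WT arrays, so that the KO group held both the highest values and the lowest. KO minus WT was 0.24 on the log2 scale with a 95% interval from -0.52 to 0.99 (adjusted p = 0.626), and without KO replicate 3 it was 0.70 (adjusted p = 0.0654). Gzma, a granzyme of the same cells, showed a like order of arrays, with KO replicate 3 again lowest. It read 9.55, 9.16 and 7.86 on KO arrays and 9.12, 8.49, 8.26 and 9.35 on WT arrays. Among the other tested T and NK markers KO replicate 3 was lowest for Cd3d, Cd3g and Nkg7, but not for Cd3e, Cd8a or Cd4. The part of these markers in the Ccl5 values was not tested. None of 7 tested T and NK markers passed, beside 15.6% of all tested genes. The log2 of the markers' summed signal with Ncr1, which lay under the level filter, was 9.82 to 10.68 on KO arrays and 9.95 to 10.56 on WT arrays.

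Ccl4 read 7.37, 6.98 and 7.11 on KO arrays and 6.98, 6.80, 6.68 and 7.05 on WT arrays, with overlap. KO minus WT was 0.28 on the log2 scale (interval 0.01 to 0.54, adjusted p = 0.136), and it kept its sign under all 21 other settings without passing. Ccl3, Xcl1 and Ccl1, the last a ligand of Ccr8, lay under the level filter, with log2 changes of 0.11, 0.04 and 0.13. Cxcr3, a receptor of activated T cells, had a log2 change of 0.13 (adjusted p = 0.211), and Xcr1, the receptor for Xcl1 on dendritic cells, lay under the level filter.

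Of the 4 neutrophil-attracting ligands only Cxcl1 was above the level filter. Cxcl2, Cxcl3 and Cxcl5, which act on Cxcr2, lay under the level filter with log2 changes of 0.00, 0.11 and 0.14. Cxcl1 read 8.36, 8.27 and 8.45 on KO arrays and 8.20, 8.27, 8.27 and 8.10 on WT arrays. KO replicate 2 equalled WT replicates 2 and 3, and the other KO arrays lay above all WT arrays. The log2 change was 0.15 (interval -0.01 to 0.31, adjusted p = 0.168). This probe set ends in x_at, as that of Ccl27a does, so its probes can match other transcripts. The other Cxcl1 probe sets were at 0.17, above the level filter, and at -0.30, under it. Cxcr2 had a log2 change of 0.20 (adjusted p = 0.0858), with its groups apart. None of 6 tested neutrophil markers passed, beside 15.6% of all tested genes. The log2 of the markers' summed signal was 11.51 to 12.88 on KO arrays and 11.78 to 13.05 on WT arrays.

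Interferon-induced ligands, which attract cells with Cxcr3, did not pass. Cxcl10 had a log2 change of 0.01 with a narrow interval from -0.14 to 0.16, and its arrays lay between 6.33 and 6.48 in KO and between 6.31 and 6.47 in WT. Cxcl11, annotated by RefSeq as a transcribed pseudogene, had a log2 change of 0.15 (adjusted p = 0.236), and 0.14 at its other probe set. Cxcl9 lay under the level filter at both of its probe sets, with -0.07 and 0.09.

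Ccl8 and Ccl11, ligands for monocytes and eosinophils, and the B cell ligand Cxcl13 varied within the WT group. Ccl8, a ligand of Ccr8 in the mouse, read 6.95, 7.10 and 7.02 on KO arrays and 6.92, 7.48, 6.43 and 6.34 on WT arrays. Ccl11, eotaxin, read 5.76, 6.06 and 5.85 on KO arrays and 5.67, 6.34, 5.61 and 5.72 on WT arrays. Cxcl13, which draws B cells into follicles through Cxcr5, read 6.82, 7.44 and 6.74 on KO arrays and 6.65, 7.62, 6.60 and 6.27 on WT arrays. In all 3 genes WT replicate 2 was the highest of the 7 arrays and KO replicate 2 the next. The log2 changes were 0.23 for Ccl8, 0.06 for Ccl11 and 0.22 for Cxcl13 (adjusted p = 0.517, 0.839 and 0.633). Without WT replicate 2 they were 0.46, 0.22 and 0.49, and none passed.

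Ccl2, Ccl7 and Ccl12, which recruit monocytes through Ccr2, lay under the level filter, with log2 changes of 0.18, -0.02 and -0.09. Ccl2 read 5.14, 5.04 and 5.25 on KO arrays and 4.82, 5.04, 5.04 and 4.94 on WT arrays, with the groups touching at 5.04 (adjusted p = 0.151 in the fit without the filter). Ccr2 itself had a log2 change of -0.25 (adjusted p = 0.241). Over all 10 ligands under the filter, 7 were above 0, the log2 changes ran from -0.09 to 0.18, and 0 passed in the limma fit without the filter, with 1 at unadjusted p under 0.05. Mean signals of these 10 lay between 3.53 and 5.34, where a fold change can be understated.

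**Figure D5:**
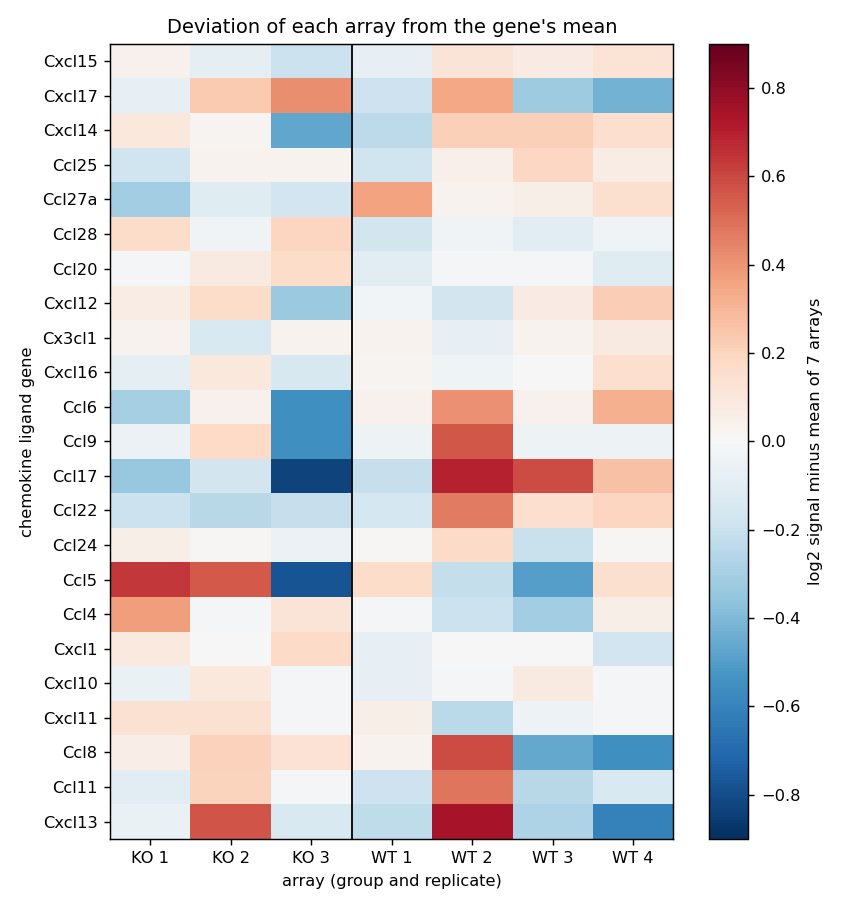
Deviation of each array from the mean of the 7 arrays, in log2 units by colour, for the 23 tested chemokine ligand genes in rows, with the 3 KO arrays left of the line and the 4 WT arrays right of it. WT replicate 2 is the highest array for Ccl8, Ccl11 and Cxcl13, and KO replicate 3 is low for Ccl5, Ccl6, Ccl9 and Ccl17.

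By array, WT replicate 2 was the highest of the 7 for 8 of the 23 tested ligands, and KO replicate 3 was the lowest for 8. KO replicate 3 was lowest for Ccl5, Ccl6, Ccl9, Ccl17, Cxcl12, Cxcl14, Cxcl15 and Cxcl16. The medians of the arrays' deviations from the gene means were nonetheless small, from -0.02 to 0.04 for KO replicates 1 and 2, -0.05 for KO replicate 3 and -0.07 to 0.05 for the WT arrays.

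Lymphoid ligands of the Ccl19 and Ccl21 genes were annotated to several near-identical genes at a time and were not counted as members. The probe set of the Ccl21 copies averaged 8.51 in KO and 8.84 in WT, a log2 change of -0.33, and that of the Ccl19 copies averaged 8.22 in KO and 8.12 in WT, a log2 change of 0.10. Ccr7, the receptor of both, had a log2 change of -0.20 (adjusted p = 0.496). Ackr4, a scavenger of these ligands and of Ccl25, had one of 0.51 (adjusted p = 0.0799), with KO arrays at 6.73, 6.85 and 6.28 and WT arrays at 5.88, 5.86, 6.31 and 6.38.

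Platelet chemokines have symbols that the selection did not match, and of the 2 genes Ppbp rose and Pf4 did not pass. Ppbp, whose processed forms attract neutrophils, stood at 10.78, 11.05 and 11.21 on KO arrays and 10.22, 10.47, 10.15 and 9.97 on WT arrays (log2 change 0.81, adjusted p = 0.00935), and Pf4 had a log2 change of 0.55 (adjusted p = 0.0677). Of 5 tested platelet markers 3 rose, 0 fell and 2 did not pass, beside 5.56% higher and 10.0% lower of all tested genes. Those that rose were Gp1bb, Clec1b and Treml1, with log2 changes of 1.02, 0.60 and 0.44 (limma adjusted p = 0.00921, 0.0292 and 0.0159). The Gp1bb call held with any one array left out, and that of Treml1 was lost without KO replicate 3 (limma adjusted p = 0.0526). That of Clec1b held only without KO replicate 1 or WT replicate 2 (limma adjusted p up to 0.0936 in the others). The log2 of the markers' summed signal, Gp6 under the level filter included, was 10.13 to 10.40 on KO arrays and 9.60 to 9.97 on WT arrays. Their part in the Ppbp and Pf4 values was not tested.

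Of 16 tested typical and atypical receptors 1 fell, 0 rose and 15 did not pass, beside 15.6% of all tested genes. Among 22 receptor genes with a probe set of their own, 6 lay under the level filter. Ackr1 and Ackr2, which bind inflammatory ligands without signalling through G proteins, had log2 changes of 0.16 (adjusted p = 0.173) and -0.11 (adjusted p = 0.515).

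Of 19 tested genes that act downstream of the receptors 5 fell, 1 rose and 13 did not pass, beside 10.0% lower and 5.56% higher of all tested genes. Gnb2, a G protein beta subunit, fell with a log2 change of -1.50 (adjusted p = 0.0087), Arrb1, a beta-arrestin that ends receptor signalling, with -0.82 (adjusted p = 0.0131), and Rac1, a GTPase of cell movement, with -0.45 (adjusted p = 0.0112). Gnai3 and Gnb1, a G protein alpha and a beta subunit, fell by less, with -0.41 and -0.28 (adjusted p = 0.0288 and 0.0301). Each of these calls held in 3 of 7 fits with 1 array left out, that of Gnai3 without KO replicate 2, WT replicate 1 or WT replicate 2 and that of Gnb1 without KO replicate 1, KO replicate 2 or WT replicate 2. In the other fits the limma adjusted p reached 0.0772 for Gnai3 and 0.0774 for Gnb1. Grk6, a receptor kinase, rose with 0.37 (adjusted p = 0.0488), a call lost without any one of the 7 arrays (limma adjusted p from 0.0507 to 0.131). Gnai2, the usual alpha subunit of chemokine receptors, had -0.12 (adjusted p = 0.208). These genes serve many other receptors.

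Of 15 tested genes that present or trim chemokines 2 fell, 1 rose and 12 did not pass, beside the same 10.0% and 5.56%. Sdc2, a heparan sulphate proteoglycan, stood at 10.12, 9.94 and 9.83 on KO arrays and 10.71, 10.49, 10.48 and 10.57 on WT arrays (log2 change -0.60, adjusted p = 0.00793). Ext1, an enzyme that extends heparan sulphate chains, fell with -0.53 (adjusted p = 0.0211), a call lost without KO replicate 3 (adjusted p = 0.0687). Sdc1, another such proteoglycan, rose with 0.20 (adjusted p = 0.0436). The call held without KO replicate 1 and in no other fit with 1 array left out (limma adjusted p up to 0.106), and Sdc1 was at 0.00 when all its probe sets were averaged. Dpp4, which clips Cxcl10, Cxcl12 and other ligands, had -0.09 and the shedding protease Adam10 -0.02, and neither passed. Of 25 tested cytokines and regulators of chemokine genes 1 fell, Stat6, and 24 did not pass, again beside 10.0% and 5.56%. The log2 changes of Tnf, Il1b and Il1a were 0.12, 0.33 and 0.16, and those of the NF-kB genes Rela, Relb and Nfkb2 were -0.21, 0.06 and 0.05. Nfkbia, the inhibitor that NF-kB itself induces, had 0.04 (interval -0.12 to 0.20).

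The promoters of 23 of the 33 ligand genes were given by RefSeq, in 26 windows, and 4 motifs chosen with results known were searched. The NF-kB consensus, searched on both strands, was found in 8 of 26 windows (30.8%), against 8.46% of all windows. The genes were Ccl1, Ccl9, Ccl20, Ccl27a, Cxcl1, Cxcl2, Cxcl3 and Cxcl10. The TATA box TATAAA, on either strand, was in 9 of 26 (34.6%), against 13.6% of all. The STAT motif, TTC and GAA with 4 bases between them, was in 1 window, that of Ccl17, against 6.95% of all windows, and a GATA motif was in 7 of 26 (26.9%), against 29.8%. Of the 8 genes with an NF-kB match, Cxcl2, Cxcl3 and Ccl1 lay under the level filter and were not tested. Among the tested Ccl9, Ccl20, Ccl27a, Cxcl1 and Cxcl10, Ccl27a passed between KO and WT lungs, beside 15.6% of all tested genes.

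For markers of other lung cells the counts stand beside 10.0% lower and 5.56% higher of all tested genes. Endothelial genes had 4 of 8 lower, mesothelial genes 3 of 6, smooth muscle and pericyte genes 3 of 6 and fibroblast genes 2 of 7. Alveolar type 1 genes had 1 of 5 lower and alveolar type 2 genes 1 of 7, and each of these lists had 0 higher. The type 2 gene was Lyz2 (log2 change -0.43, limma adjusted p = 0.0287), while the surfactant genes Sftpa1, Sftpb, Sftpc and Sftpd did not pass. The Lyz2 call held without KO replicate 2 or WT replicate 1. It was lost without any one of the other arrays (limma adjusted p up to 0.0888). The thymus list, which includes the ligand Ccl25 itself, had 1 of 4 higher. That gene was Cd1d1, the brightest of the list and the largest part of its sum, at a mean of 9.95 in KO and 9.63 in WT. The Cd1d1 call was lost without any one of the 7 arrays (limma adjusted p from 0.0595 to 0.105). Rag1 and Ptcra of that list lay under the level filter. The B and plasma cell (5 tested), lymphatic endothelial (5), club and goblet (7) and mast cell (2) lists had no member that passed. Summed signals did not overlap between the groups for the endothelial list, at 13.24 to 13.46 on KO arrays and 13.57 to 13.69 on WT arrays, for the type 2 list, at 15.65 to 15.73 and 15.81 to 16.04, or for the thymus and mast cell lists. Among all tested genes, groups of arrays did not overlap for 29.6%. Their part in the ligand values was not tested.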

How the data were processed

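Total RNA of 7 left lungs was labelled with biotin and hybridised to arrays, 1 per mouse. The table the authors deposited gives a log2 signal for 45101 probe sets, the log base being read from the range of the values. The submitters' processing notes list Affymetrix Expression Console, RMA and MAS5. Their versions, and which one made the table, are not stated there. Values were used as deposited, with no pseudocount. Gene names came from the platform annotation, updated by gene identifier through RefSeq for 34741 of 34945 probe sets with 1 gene. The 932 probe sets with several genes stood for no gene.

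KO minus WT was fitted with limma 3.58.1 (lmFit, eBayes; R 4.3.3) with no covariate, and p-values were adjusted by Benjamini-Hochberg over 13285 genes. Genes under the level filter were read from the same fit on 18193 genes. Control differences were compared with an exact permutation test. Intervals are at 95%, and the number of arrays limits the precision. The fit was tested on simulated data. The ligands, the gene lists, the roles and the promoter motifs were chosen with earlier results of these data known. All 7 values were to be given for the 8 ligands with the highest signal and those past the threshold, and those of further genes were added after their values were seen. Of each list the changed or best-known members beside a ligand are named. Alternatives covered the level filter, normalization, probe sets, variance model, array weights, control differences as covariates, the replicate number as a block, the 5 lowest title numbers and each array left out. matplotlib 3.10.9 and Python 3.11.15 drew the figures.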

Additional observations from a re-analysis of the deposited data

Results flagged for a closer look

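In the WT group, 3 values among the 23 tested ligands lay far from the other 3 arrays. WT replicate 2 was high for Ccl11, at 6.34 against 5.61 to 5.72, and for Ccl9, at 9.21 against 8.61 on each of the others. WT replicate 1 was low for Cxcl14, at 9.42 against 9.81 to 9.87. Chance marks about 1 group in 20 in this way. The KO group, with 3 arrays, was not examined for such values.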

How the results depend on the processing

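Under other settings the number of ligands that passed was 2 with median centring and with the trended, robust variance model, 3 with every probe set on its own, and 0 with any of the 3 control differences as a covariate or among the 5 samples with the lowest title numbers (limma, with 3, 7, 3 and 2 at unadjusted p under 0.05). It was 0 to 2 with single arrays left out. Receptors that passed numbered 2 with the Gapdh covariate, 0 with either beta-actin covariate or among those 5 samples, and 0 to 1 with single arrays left out. Over all genes the count of 2069 became 4292 probe sets tested on their own, 0 with either beta-actin covariate (limma, 2204 and 1742 at unadjusted p under 0.05), 0 among the 5 samples (2791) and 891 to 1951 with single arrays left out, 891 being without WT replicate 4. Genes higher in KO were 35.7% of those that changed, 56.9% after quantile normalization, 25.5% after median centring and 46.7% after cyclic loess.

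Of the 23 tested ligands 6 kept the sign of their log2 change wherever they were tested (Ccl4, Ccl6, Ccl17, Ccl22, Ccl27a and Ccl28). The other 17 did not, none of them past the threshold in the reported fit, and the cause was not tested. Signs turned with quantile normalization for Ccl24 (-0.02), Cxcl10 (-0.01) and Cxcl12 (0.04), with median centring for Ccl24 (-0.02) and Cxcl10 (-0.02), and with cyclic loess for Ccl11 (-0.01), Ccl24 (-0.04), Cxcl10 (-0.03) and Cxcl12 (0.00). They turned with the mean of all probe sets for Ccl25 (0.08), Cx3cl1 (0.12) and the proteoglycan gene Sdc1 (0.00), and with array weights for Cxcl10 (0.00). The beta-actin 5′ covariate turned Ccl5 (-0.23), Cx3cl1 (0.07), Cxcl10 (-0.11), Cxcl11 (-0.04) and Cxcl13 (-0.03), and the Gapdh covariate Ccl11 (0.00), Ccl24 (-0.01) and Cxcl12 (0.00). The beta-actin middle covariate turned Ccl20 (-0.01), Ccl8 (-0.18), Ccl9 (0.20), Cxcl1 (-0.03), Cxcl12 (0.50), Cxcl14 (0.43), Cxcl15 (0.11), Cxcl16 (0.12), Cxcl17 (-0.20) and the endothelial gene Emcn (0.00). Among the 5 samples Ccl11 (-0.12), Ccl24 (-0.09), Ccl25 (0.03), Ccl8 (-0.18), Cxcl12 (0.06) and Cxcl13 (-0.14) turned. With single arrays left out the log2 change ran from -0.03 to 0.22 for Ccl11, -0.06 to 0.06 for Ccl24, -0.01 to 0.70 for Ccl5, -0.07 to 0.02 for Cx3cl1, -0.03 to 0.04 for Cxcl10, -0.16 to 0.09 for Cxcl12 and 0.00 to 0.49 for Cxcl13.

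With the replicate number as a block, 371 genes, 0 ligands (limma, 6 at unadjusted p under 0.05) and 1 receptor passed, Ccl27a was at -0.35 (adjusted p = 0.146) and Cxcl12 turned to 0.00. Same-numbered deviations from the group means correlated at 0.003, -0.042 and 0.035, and those of other pairs at -0.29 to 0.265. The labels give no litter, and these few correlations cannot tell whether same-numbered samples share one. Low signal limits what can be seen of the 10 ligands under the level filter.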
